A study of Mus musculus with 46 samples.

Results

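Chemokines are small secreted proteins that steer the movement of leukocytes, and their receptors are G protein-coupled receptors that read these gradients on the cell surface. In adipose tissue the family is known for bringing in monocytes, neutrophils, lymphocytes and eosinophils, and the ligands come from adipocytes, stromal and endothelial cells as well as from resident macrophages. CC and CXC ligands are named for the spacing of their first cysteines, and most receptors bind several ligands. The genes described here are the mouse symbols of CC, CXC, XC and CX3C ligands and receptors that reached 0.3 FPKM (reads per kilobase of a gene, divided by the size of the library) in at least 5 of 20 RNA libraries. Of 58 family symbols among 24338 genes, 42 met that floor, of which 29 were ligands and 13 were receptors.

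RNA came from visceral adipose tissue of mice in 4 groups of 5 libraries. CORT stands for mice given corticosterone, the rodent counterpart of cortisol, and VEH for their controls. By the labels, CORT_5w models active Cushing's syndrome and CORT_15w mice that have recovered, and each has VEH controls of its own time, VEH_5w and VEH_15w. Strain, genotype, sex, age and dose are not given in the sources used here, and nothing states that the 5 libraries of a group came from separate animals, so that p-values measure the spread between these libraries. Histone mark data of the same series were not analysed here.

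The libraries held 25.1 M to 42.6 M reads (median 30.1 M), as recovered from the FPKM. Adipoq, the adipocyte hormone adiponectin, was between 1641 and 4016 FPKM in every library. Transcripts of liver, testis or epididymis (Alb, Prm2 or Crisp1 of at least 100 FPKM) marked 7 libraries: CORT_5w replicates 2, 3 and 4, VEH_5w replicate 3, CORT_15w replicates 1 and 5, and VEH_15w replicate 5. Calls lost without those 7 libraries are given with the results. Fewer of all genes were called there too (26.5% at 5 weeks, in place of 41.6%). CORT_15w replicate 4 stood apart in the chemokines themselves and is described at the end.

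A pair of related genes took a large share of the ligand signal. Ccl6 and Ccl9, rodent CC chemokines that act on the receptor Ccr1 of myeloid cells, made up 38.9% to 76.4% of the summed ligand FPKM of a library. The CORT_5w libraries held 224, 274, 173, 408 and 479.8 FPKM of Ccl6, and the VEH_5w libraries held 339.5, 134, 215, 142 and 205 FPKM. The groups overlapped, and Ccl6 was not called (log2 change 0.57, SE 0.36, adjusted p = 0.224). By group mean, 8 members reached 10 FPKM in VEH_5w, 20 lay between 1 and 10 FPKM, and 14 were below 1 FPKM. The highest after Ccl6 and Ccl9 in that group were Ccl11 at 56.1 FPKM, the neutrophil receptor gene Cxcr2 at 34.6 FPKM, Ccr2 at 27.2 FPKM and Cxcl12 at 26.4 FPKM. At the low end, the ligands Ccl22, Cxcl5, Cxcl17 and Xcl1 and the receptors Ccr7, Ccr9, Ccr10, Cxcr5 and Xcr1 had means below 1 FPKM in every group. Of the 16 family symbols under the floor, Ccl20, Ccl21a, Ccl21b, Ccl21c, Ccl27b and Ccl28 were listed at 0 in all 20 libraries. Ccl21a, Ccl21b and Ccl21c are near-identical copies, as are Ccl27a and Ccl27b, and the counting of reads shared between copies is not given in the sources used here.

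At 5 weeks of corticosterone the family split. The monocyte and neutrophil attractants Ccl2, Ccl7, Ccl3, Ccl4, Cxcl1 and Cxcl2 rose, while Cxcl12, Ccl11, Cxcl9, Ccl19 and Ccl5 fell, and among the receptors 6 fell and 1 rose. The extremes were Ccl2 (log2 change 2.73, SE 0.33, adjusted p = 5.52e-06) and Cxcl12 (log2 change -1.87, SE 0.31, adjusted p = 1.08e-04). Changes are CORT minus VEH on the scale of log2(FPKM + 1), where those of genes near or below 1 FPKM come out too small, and a call is an adjusted p below 0.05 over the 16581 genes tested. Members that rose numbered 9 of 42 (21.4%), beside 21.2% of all genes tested. Those that fell numbered 11 of 42 (26.2%), beside 20.3% of all genes. Calls in either direction reached 20 of 42 (47.6%), beside 41.6%, so the share of members called lay near that of all genes. The groups did not overlap, with CORT higher, for 5 members, beside 15% of all genes, and with CORT lower for 10 members, beside 12.8%. The median change of the 42 members was -0.11, beside 0.017 for all genes tested.

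**Figure D1:**
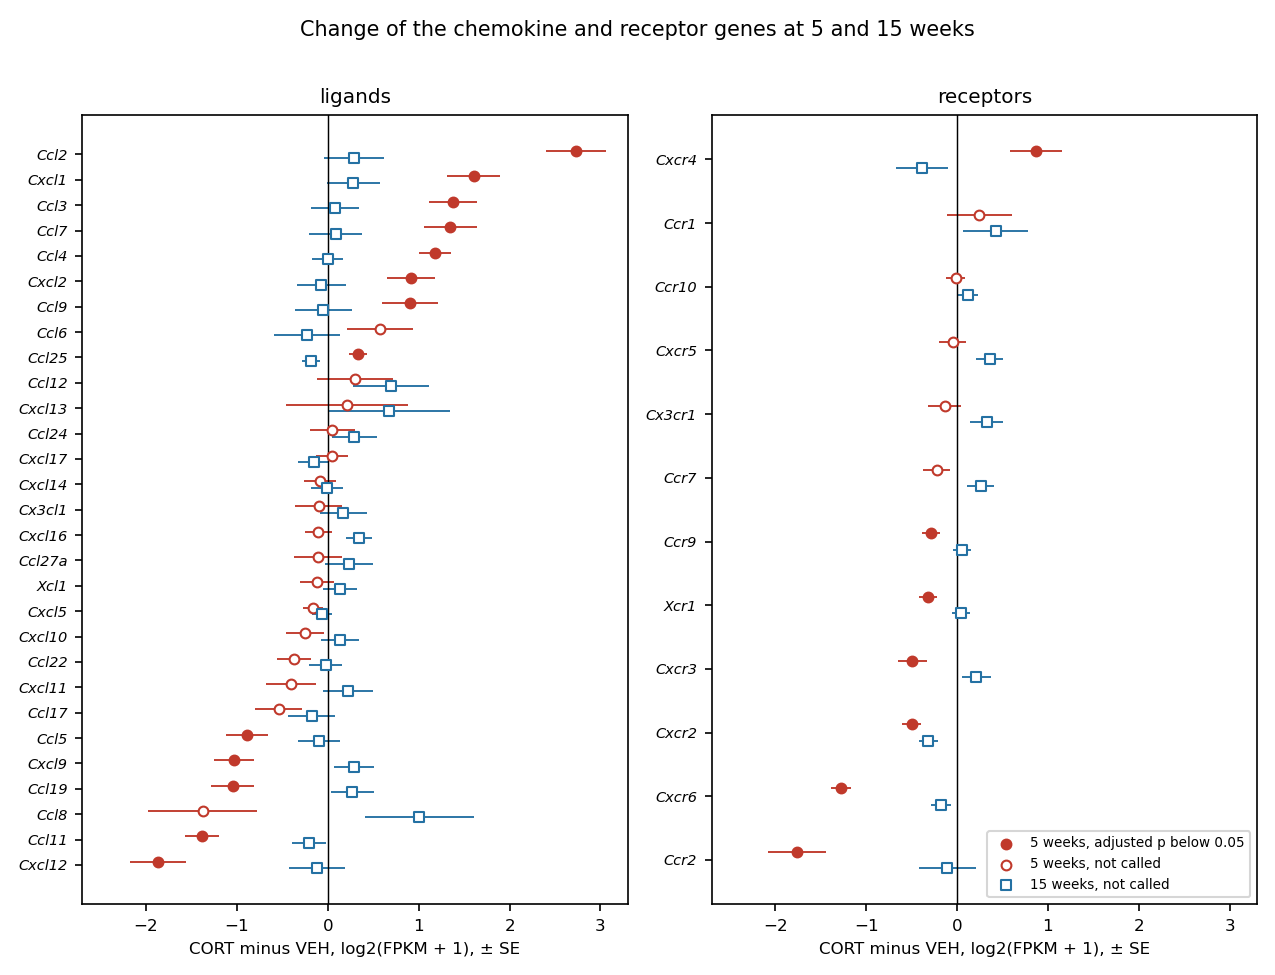
Change of the 29 ligand genes (left) and of 12 of the 13 receptor genes (right), CORT minus VEH on the log2(FPKM + 1) scale, with the standard error, at 5 weeks (circles) and 15 weeks (squares). Filled symbols passed an adjusted p below 0.05, and all filled symbols belong to 5 weeks, from Ccl2 at 2.73 to Cxcl12 at -1.87.

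Of the ligands of the monocyte receptor Ccr2, Ccl2 and Ccl7 rose. Ccl2, the main monocyte attractant of the family, stood at 41.5, 81.4, 21.1, 106 and 71.2 FPKM in CORT_5w replicates 1 to 5, and at 6.02, 9.19, 12, 5.68 and 6.37 FPKM in VEH_5w replicates 1 to 5. The lowest CORT library was above the highest VEH library, and the means were 64.2 ± 33.3 FPKM in CORT and 7.85 ± 2.71 FPKM in VEH (SD, n = 5 each). By 15 weeks Ccl2 ran 5.41, 8.47, 10.6, 6.67 and 5.72 FPKM in CORT and 7.56, 3.8, 7.58, 4.18 and 6.3 FPKM in VEH. Those 2 groups overlapped, and all 10 values lay below the CORT_5w libraries. Ccl7 stood at 22.4, 40.4, 15.7, 51.1 and 40.4 FPKM in CORT_5w replicates 1 to 5, and at 8.96, 15.7, 16.5, 8.81 and 10.3 FPKM in VEH_5w replicates 1 to 5. Ccl7 is a neighbour of Ccl2 in the genome and a ligand of the same receptor. Its groups overlapped, since CORT_5w replicate 3 lay within the VEH range, and it rose (log2 change 1.35, SE 0.29, adjusted p = 0.00106). In the later groups, Ccl7 ran 6.55, 13.7, 15.4, 9.24 and 7.76 FPKM in CORT and 13.6, 8.31, 10.1, 8.25 and 7.73 FPKM in VEH. Ccl12, another Ccr2 ligand of mice, had a mean of 3.65 FPKM in CORT_5w, against 3.19 FPKM in VEH_5w, and was not called (log2 change 0.30, SE 0.42, adjusted p = 0.607).

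Other CC ligands of myeloid cells also rose. Ccl3, made by activated macrophages, stood at 2.03, 4.32, 2.84, 5.09 and 5.24 FPKM in CORT_5w and 1.42, 0.708, 0.658, 0.973 and 0.48 FPKM in VEH_5w. The groups did not overlap (log2 change 1.38, SE 0.27, adjusted p = 4.72e-04). At 15 weeks Ccl3 ran 0.979, 1.1, 4.07, 1.36 and 0.729 FPKM in CORT, where replicate 3 alone was high, and 1.21, 1.31, 1.38, 0.602 and 2.33 FPKM in VEH. Ccl4 stood at 1.37, 2.22, 2.07, 3.25 and 2.27 FPKM in CORT_5w replicates 1 to 5, and at 0.791, 0.15, 0.456, 0.373 and 0.319 FPKM in VEH_5w replicates 1 to 5. Ccl4, a relative of Ccl3 that lies beside it, likewise had no overlap between the groups (log2 change 1.18, SE 0.17, adjusted p = 3.23e-05). Its 15-week libraries ran 0.373, 0.593, 1.09, 0.529 and 0 FPKM in CORT, with replicate 5 listed at 0, and 0.567, 0.602, 0.514, 0.333 and 0.387 FPKM in VEH. Ccl9 stood at 78.9, 117, 68.7, 164 and 175 FPKM in CORT_5w replicates 1 to 5, and at 88, 43.4, 68.8, 46.6 and 62.2 FPKM in VEH_5w replicates 1 to 5. CORT_5w replicates 1 and 3 lay within the VEH range of Ccl9, and the other 3 lay above it. Ccl9 passed the test (log2 change 0.90, SE 0.31, adjusted p = 0.025), but the call was lost without any 1 of CORT_5w replicates 4 and 5 and VEH_5w replicates 2 and 4 (0.75 to 0.82, adjusted p 0.0613 to 0.0727) and without the 7 libraries that hold other tissues (1.01, adjusted p = 0.0779). At 15 weeks Ccl9 ran 29.3, 31.6, 64.2, 84.4 and 27.8 FPKM in CORT and 40.4, 39.4, 52.1, 38 and 52.6 FPKM in VEH.

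The neutrophil attractants Cxcl1 and Cxcl2, both ligands of Cxcr2, also rose. Cxcl1 stood at 2.03, 10.6, 3.55, 5.73 and 3.59 FPKM in CORT_5w replicates 1 to 5, and at 0.904, 0.729, 1.01, 0.939 and 0.488 FPKM in VEH_5w replicates 1 to 5. All 5 CORT values lay above all 5 VEH values, with CORT_5w replicate 2 far above the rest (log2 change 1.60, SE 0.29, adjusted p = 2.52e-04). The 15-week values of Cxcl1 were 1.26, 1.74, 2.67, 0.95 and 1.71 FPKM in CORT and 2.8, 1.22, 0.636, 0.54 and 1.13 FPKM in VEH. Cxcl2 stood at 0.439, 2.25, 1.16, 1.57 and 1.45 FPKM in CORT_5w, and at 0.0344, 0.243, 0.833, 0.142 and 0 FPKM in VEH_5w, where replicate 5 is listed at 0. CORT_5w replicate 1 lay within the VEH range, and Cxcl2 passed the test (log2 change 0.91, SE 0.27, adjusted p = 0.00986). At 15 weeks it ran 0.195, 0.556, 0.767, 0.403 and 0.157 FPKM in CORT and 0.314, 0.33, 0.139, 0.0676 and 2.19 FPKM in VEH, with VEH_15w replicate 5 near the CORT_5w level. Cxcl5, a further ligand of Cxcr2, was not called (log2 change -0.16, SE 0.11, adjusted p = 0.269).

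Cxcl1 and Cxcl2 rose, and their chromosomal neighbours Cxcl9 and Cxcl10 did not. The 250 bases before the start of each are shown, a choice made after these changes were seen (RefSeq, build GRCm38.p6). Capitals mark matches, on either strand, to the NF-kappaB consensus, the sequence read by the main inflammatory transcription factor of chemokine genes, and to the core of the interferon-stimulated response element, GAAANNGAAA.
Cxcl1 (chr5:90890995-90891244, plus strand): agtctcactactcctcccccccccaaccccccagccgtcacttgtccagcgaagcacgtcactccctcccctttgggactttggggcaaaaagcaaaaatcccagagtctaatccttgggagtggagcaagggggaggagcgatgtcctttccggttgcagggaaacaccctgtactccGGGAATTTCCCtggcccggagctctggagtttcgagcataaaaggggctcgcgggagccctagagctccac
Cxcl2 (chr5:90903649-90903898, plus strand): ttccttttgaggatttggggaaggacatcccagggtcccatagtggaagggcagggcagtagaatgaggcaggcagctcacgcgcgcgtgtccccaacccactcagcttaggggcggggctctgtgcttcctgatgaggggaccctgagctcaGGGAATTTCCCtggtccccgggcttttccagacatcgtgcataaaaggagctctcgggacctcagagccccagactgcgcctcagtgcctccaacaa
Cxcl9 (chr5:92328080-92328329, minus strand): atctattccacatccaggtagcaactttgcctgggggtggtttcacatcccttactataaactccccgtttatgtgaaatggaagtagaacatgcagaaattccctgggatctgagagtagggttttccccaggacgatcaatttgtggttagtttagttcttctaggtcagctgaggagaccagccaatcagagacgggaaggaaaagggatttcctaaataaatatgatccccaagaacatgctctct
Cxcl10 (chr5:92348890-92349139, minus strand): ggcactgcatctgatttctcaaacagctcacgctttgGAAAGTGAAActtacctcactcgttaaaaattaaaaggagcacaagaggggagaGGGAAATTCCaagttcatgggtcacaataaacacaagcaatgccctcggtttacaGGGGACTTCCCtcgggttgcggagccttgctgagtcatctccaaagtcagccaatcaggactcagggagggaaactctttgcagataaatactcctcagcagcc

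Cxcl1 and Cxcl2 held the same run, GGGAATTTCCC, in which overlapping matches lie on both strands, from 71 to 61 bases before the start of Cxcl1 and from 97 to 87 bases before the start of Cxcl2. Cxcl10 held 2 separate stretches that match NF-kappaB, and further upstream a response element core, and it was not called (log2 change -0.25, SE 0.21, adjusted p = 0.367). Cxcl9, which fell, held neither in this window. The reference held 31 promoters of 28 members. Of these 31, 5 matched NF-kappaB (Ccl9, Ccr1, Cxcl1, Cxcl2 and Cxcl10), beside 7.25% of all 32851 promoters of that length. The response element core was in 3 of the 31 (Ccl19, Cxcl10 and Cxcl14), beside 2.98% of all promoters. The glucocorticoid response element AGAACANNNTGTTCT was in 0 member promoters and in 0.00913% of all promoters, while its 6-base core AGAACA alone was in 5 of the 31 (Ccl22, Cxcl9, Cxcl14, Cxcr2 and Cxcr4) and in 16.1% of all promoters. These are matches of letters, binding was not measured, and any link between a match and a change was not tested.

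Ccl25, the ligand of Ccr9, rose by a small step. Ccl25 stood at 1.87, 2.06, 1.93, 1.89 and 1.98 FPKM in CORT_5w replicates 1 to 5, and at 1.2, 1.11, 1.52, 1.23 and 1.65 FPKM in VEH_5w replicates 1 to 5. The groups did not overlap (log2 change 0.34, SE 0.10, adjusted p = 0.0107), and the call was lost without the 7 libraries (0.35, adjusted p = 0.0561). The 15-week values were 2.01, 1.42, 0.993, 1.42 and 1.33 FPKM in CORT and 1.82, 1.72, 1.72, 1.44 and 2.06 FPKM in VEH.

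**Figure D2:**
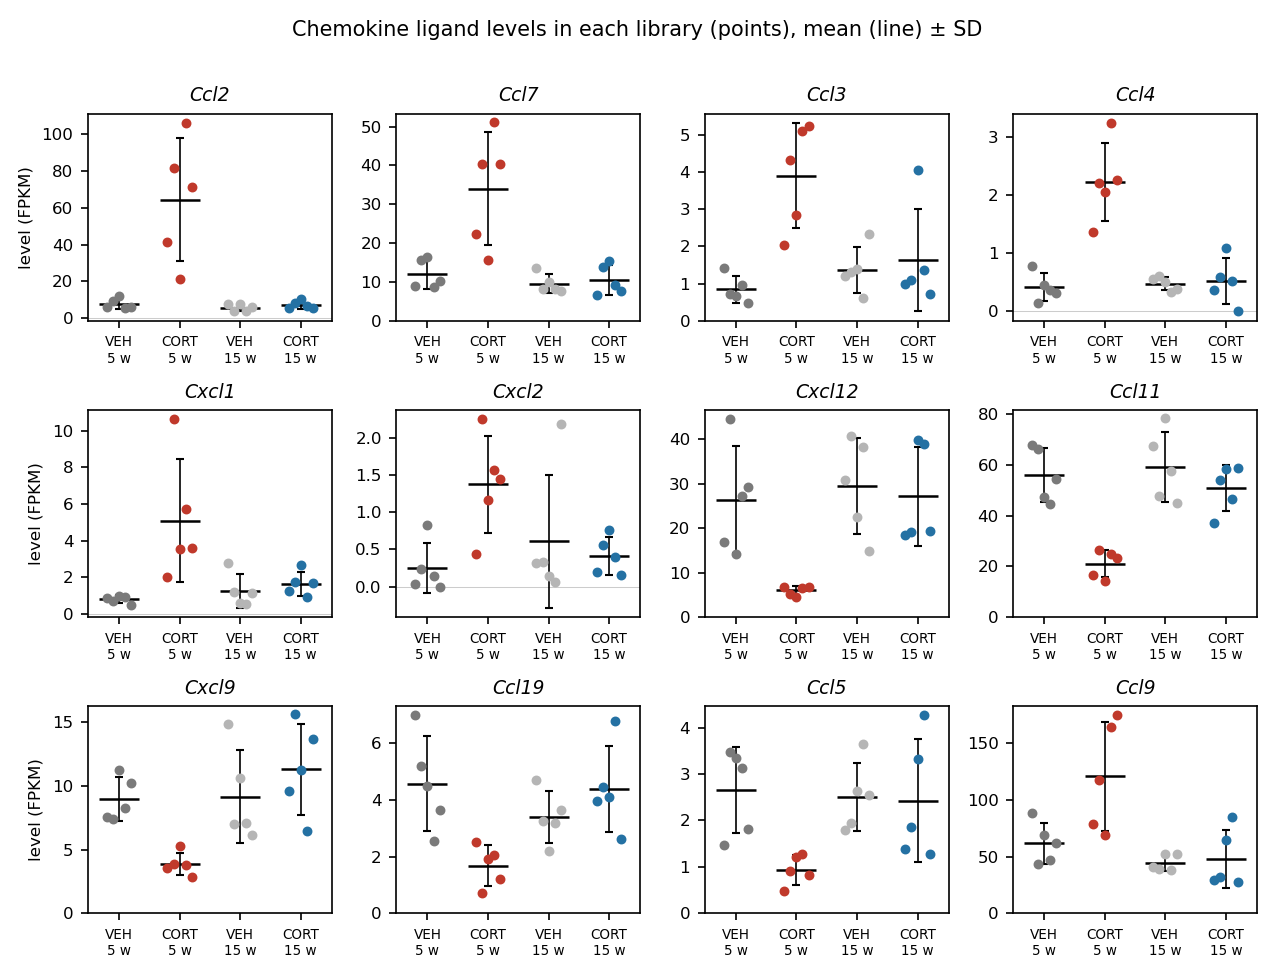
Level (FPKM) of 12 chemokine ligand genes in every library, by group of 5 libraries. Points are libraries, lines are means and whiskers are the SD. For Ccl2 the CORT_5w libraries reach 106 FPKM, and for Cxcl12 they stay below 14.2 FPKM, the lowest VEH_5w library.

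Cxcl12, the ligand of Cxcr4 and a retention signal for leukocytes made by stromal and endothelial cells, had the largest fall of the family. Cxcl12 stood at 6.85, 5.17, 4.58, 6.63 and 6.82 FPKM in CORT_5w replicates 1 to 5, and at 16.9, 44.6, 14.2, 27.3 and 29.2 FPKM in VEH_5w replicates 1 to 5. The CORT_5w values were tight and lay below every VEH_5w value, with means of 6.01 ± 1.06 FPKM in CORT and 26.4 ± 12 FPKM in VEH (SD, n = 5 each). At 15 weeks both groups spread over the VEH_5w range, with 18.5, 19.2, 39.9, 39.1 and 19.5 FPKM in CORT and 30.8, 40.7, 22.6, 38.3 and 14.9 FPKM in VEH. Ccl11 stood at 16.5, 26.4, 14.4, 24.8 and 23.4 FPKM in CORT_5w replicates 1 to 5, and at 67.9, 66.1, 47.4, 44.6 and 54.6 FPKM in VEH_5w replicates 1 to 5. Ccl11, or eotaxin, attracts eosinophils through Ccr3, and its groups did not overlap (log2 change -1.39, SE 0.19, adjusted p = 1.53e-05). By 15 weeks Ccl11 ran 37, 53.8, 58.2, 46.5 and 58.7 FPKM in CORT and 67.3, 47.8, 78.4, 57.5 and 44.8 FPKM in VEH, which overlapped. Ccl24, another eotaxin, stood at means of 6.3 FPKM in CORT_5w and 5.97 FPKM in VEH_5w and was not called (log2 change 0.05, SE 0.25, adjusted p = 0.889). Ccr3, the eotaxin receptor, was under the floor.

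The ligands of lymphocyte receptors fell in part. Cxcl9 stood at 3.54, 3.88, 5.28, 3.77 and 2.86 FPKM in CORT_5w replicates 1 to 5, and at 7.53, 7.39, 11.3, 8.31 and 10.2 FPKM in VEH_5w replicates 1 to 5. Cxcl9 is an interferon-gamma target that attracts T cells through Cxcr3, and each CORT value lay below each VEH value (log2 change -1.03, SE 0.22, adjusted p = 0.00112). Its 15-week libraries ran 9.57, 15.6, 11.2, 6.44 and 13.7 FPKM in CORT and 14.9, 7.04, 10.6, 7.11 and 6.16 FPKM in VEH. The related Cxcr3 ligands Cxcl10 and Cxcl11 were not called, and the change of Cxcl11 was -0.41 (SE 0.27, adjusted p = 0.254). Ccl19 stood at 2.5, 0.715, 1.91, 2.07 and 1.22 FPKM in CORT_5w replicates 1 to 5, and at 6.99, 5.21, 4.48, 2.54 and 3.65 FPKM in VEH_5w replicates 1 to 5. Ccl19, which guides cells with Ccr7 to lymphoid tissue, was lower in each CORT library than in any VEH library, by a narrow gap (log2 change -1.05, SE 0.23, adjusted p = 0.00154). At 15 weeks Ccl19 ran 3.95, 4.47, 4.09, 6.78 and 2.61 FPKM in CORT and 4.71, 3.26, 2.2, 3.2 and 3.63 FPKM in VEH. Ccl5 stood at 0.471, 0.918, 1.21, 1.28 and 0.827 FPKM in CORT_5w replicates 1 to 5, and at 1.48, 3.47, 3.35, 3.13 and 1.82 FPKM in VEH_5w replicates 1 to 5. Ccl5, a product of T and NK cells, did not overlap between the groups either (log2 change -0.89, SE 0.23, adjusted p = 0.00476). In the later groups, Ccl5 ran 1.39, 1.87, 3.33, 4.27 and 1.28 FPKM in CORT and 1.8, 1.95, 2.63, 3.65 and 2.55 FPKM in VEH.

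Ccl8, a CC ligand of macrophages, is named after its values were seen. It stood at 4.65, 6.62, 4.13, 8.49 and 4.59 FPKM in CORT_5w and 33.9, 10.2, 18.6, 11.6 and 13.2 FPKM in VEH_5w. The groups did not overlap, yet Ccl8 was not called in the model of 4 groups (log2 change -1.37, SE 0.60, adjusted p = 0.0752), where the spread is shared with the CORT_15w libraries. In a model of the 5-week libraries alone it passed (-1.37, adjusted p = 0.00435), and the authors' deposited table gives it an adjusted p of 7.17e-05. Ccl17, a T cell attractant, had a mean of 0.512 FPKM in CORT_5w, against 1.39 FPKM in VEH_5w, and was called lower only without VEH_5w replicate 5 (-0.77, adjusted p = 0.0123). The ligands Ccl12, Ccl17, Ccl22, Ccl24, Ccl27a, Cx3cl1, Cxcl10, Cxcl11, Cxcl13, Cxcl14, Cxcl16, Cxcl17, Cxcl5, Ccl6 and Xcl1, were not called. Of all 22 members not called, the changes ran from -1.37 (Ccl8) to 0.57 (Ccl6).

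Receptors mark the cells that answer the ligands, and in bulk tissue fewer cells of a type and less RNA per cell cannot be told apart. Ccr2, the receptor of monocytes entering tissue, stood at 5.38, 12.5, 3.47, 11.8 and 5.78 FPKM in CORT_5w and 35.9, 15, 31.2, 28.5 and 25.2 FPKM in VEH_5w. No CORT library reached the lowest VEH library (log2 change -1.76, SE 0.32, adjusted p = 2.49e-04). The VEH level itself was lower at 15 weeks, where CORT ran 10.9, 12.7, 8.0, 20.8 and 12.2 FPKM and VEH ran 12.1, 8.14, 13.7, 13.2 and 23.4 FPKM, although VEH did not pass the test between times (log2 change -0.92, SE 0.32, adjusted p = 0.667). Cxcr6 stood at 1.43, 1.02, 0.933, 1.42 and 1.04 FPKM in CORT_5w replicates 1 to 5, and at 3.55, 4.96, 3.84, 4.81 and 4.14 FPKM in VEH_5w replicates 1 to 5. Cxcr6, carried by effector T and NK cells, had the smallest adjusted p of the family, with the CORT values in a narrow band far below VEH (log2 change -1.28, SE 0.11, adjusted p = 1.36e-07). Its 15-week libraries ran 3.21, 3.91, 3.97, 5.05 and 3.1 FPKM in CORT and 4.5, 4.7, 4.68, 4.24 and 4.09 FPKM in VEH. Cxcl16, the ligand of Cxcr6, did not pass the test at 5 weeks (log2 change -0.10, SE 0.15, adjusted p = 0.618).

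Cxcr2 stood at 26.4, 23.2, 25.3, 19.6 and 26.6 FPKM in CORT_5w replicates 1 to 5, and at 32.1, 43, 31.1, 34.9 and 32.2 FPKM in VEH_5w replicates 1 to 5. Cxcr2, the receptor for Cxcl1 and Cxcl2 on neutrophils, was lower in all CORT libraries than in any VEH library, by a modest step (log2 change -0.50, SE 0.10, adjusted p = 9.43e-04). Csf3r, another receptor gene of neutrophils, chosen after its values were seen, was at 0.853 to 2.65 FPKM over all 20 libraries, and the cells behind the higher level of Cxcr2 were not resolved. Cxcr3 stood at 0.28, 0.371, 0.0998, 0.439 and 0.319 FPKM in CORT_5w replicates 1 to 5, and at 0.673, 0.43, 1.19, 1.43 and 0.576 FPKM in VEH_5w replicates 1 to 5. Cxcr3, the T cell receptor for Cxcl9, overlapped through CORT_5w replicate 4 and VEH_5w replicate 2 (log2 change -0.49, SE 0.16, adjusted p = 0.0187). That call was lost without VEH_5w replicates 3 and 4 (-0.42 to -0.39, adjusted p 0.0521 to 0.061) and without the 7 libraries (-0.42, adjusted p = 0.168). At 15 weeks Cxcr3 ran 0.699, 0.898, 1.39, 1.74 and 0.696 FPKM in CORT and 0.614, 0.519, 1.03, 1.02 and 0.714 FPKM in VEH. Xcr1, which marks cross-presenting dendritic cells, had means of 0.48 ± 0.0574 FPKM in CORT_5w and 0.857 ± 0.205 FPKM in VEH_5w (SD, n = 5 each) with no overlap (log2 change -0.32, SE 0.10, adjusted p = 0.0129), and lost its call without the 7 libraries (-0.29, adjusted p = 0.096). Ccr9, the receptor of Ccl25, had means of 0.309 FPKM in CORT_5w and 0.60 FPKM in VEH_5w with overlap (log2 change -0.29, SE 0.10, adjusted p = 0.0257). The Ccr9 call was lost without any 1 of CORT_5w replicates 3 and 5 and VEH_5w replicates 3, 4 and 5 (-0.27 to -0.24, adjusted p 0.0552 to 0.0736), and without the 7 libraries (-0.22, adjusted p = 0.308).

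Cxcr4, the receptor of Cxcl12, was the single receptor that rose. Cxcr4 stood at 5.08, 6.97, 3.04, 6.31 and 12.1 FPKM in CORT_5w replicates 1 to 5, and at 5.41, 2.21, 2.7, 2.2 and 2.76 FPKM in VEH_5w replicates 1 to 5. The groups overlapped through VEH_5w replicate 1, which stood above the other VEH libraries (log2 change 0.87, SE 0.29, adjusted p = 0.0205). That call was lost without CORT_5w replicate 5 (0.65, adjusted p = 0.0666) and without VEH_5w replicate 2 (0.80, adjusted p = 0.0517). At 15 weeks Cxcr4 ran 4.57, 4.38, 5.5, 6.83 and 7.12 FPKM in CORT and 8.13, 7.34, 9.15, 12.2 and 3.62 FPKM in VEH, so that VEH was the higher group by mean. The receptors Ccr1, of myeloid cells, Ccr7, Ccr10, Cx3cr1 and Cxcr5 were not called, with Ccr1 at 8.64 FPKM in CORT_5w, against 6.97 FPKM in VEH_5w (log2 change 0.24, SE 0.36, adjusted p = 0.624).

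**Figure D3:**
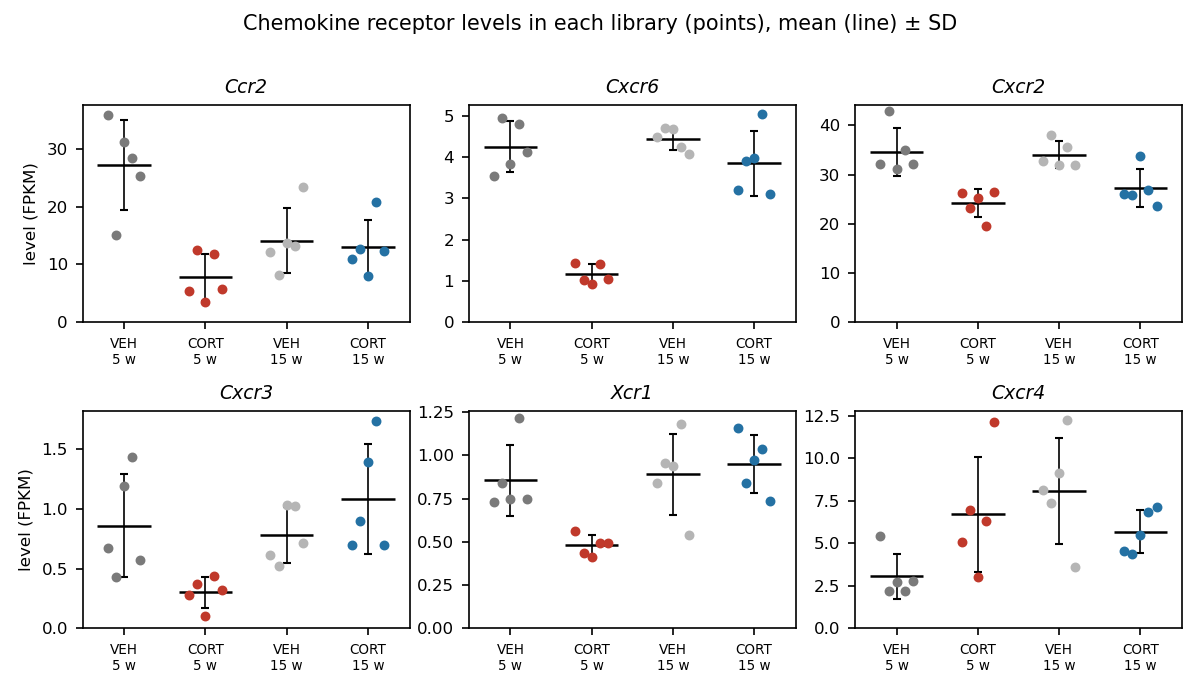
Level (FPKM) of 6 chemokine receptor genes in every library, by group of 5 libraries. Points are libraries, lines are means and whiskers are the SD. The CORT_5w libraries of Cxcr6 stay at or below 1.43 FPKM, while the lowest library of any other group is at 3.1 FPKM.

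Where a ligand and its receptor were both called, most pairs moved in opposite directions. Of 23 textbook ligand and receptor pairs among the members, a list written after the values were seen, both partners were called in 7. The directions were opposite in 6 of these. Ccl2 and Ccl7 rose while Ccr2 fell (-1.76, SE 0.32), Cxcl1 and Cxcl2 rose while Cxcr2 fell, Ccl25 rose while Ccr9 fell, and Cxcl12 fell while Cxcr4 rose. The pair that moved one way was Cxcl9 with Cxcr3, both lower. In 6 pairs the ligand alone was called, in 6 the receptor alone, and in 4 neither was. The pairs share ligands and receptors, so they are not independent, and no test was made of the count. As given above, Ccl25, Ccr9 and Cxcr3 lost their calls without the 7 libraries, and the call of Cxcr4 depended on single libraries.

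Chemokine genes lie in clusters, and neighbours moved in different directions. By RefSeq gene order, 13 members lie on chromosome 11, 8 on chromosome 5 and 8 on chromosome 9. In the run Ccl2, Ccl7, Ccl11, Ccl12 and Ccl8 on chromosome 11, the first pair rose, Ccl11 fell (-1.39, SE 0.19) and Ccl12 and Ccl8 were not called. Further along, Ccl5 fell, Ccl9 rose, Ccl6 was not called, and Ccl3 and Ccl4 rose. On chromosome 5, Cxcl1 and Cxcl2 rose, Cxcl9 fell, and Cxcl10, Cxcl11 and Cxcl13 were not called. On chromosome 9, the called receptors Ccr2, Ccr9, Cxcr6 and Xcr1 all fell. Gene order is given for background, and positions were not used with these files, whose build differs.

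**Figure D4:**
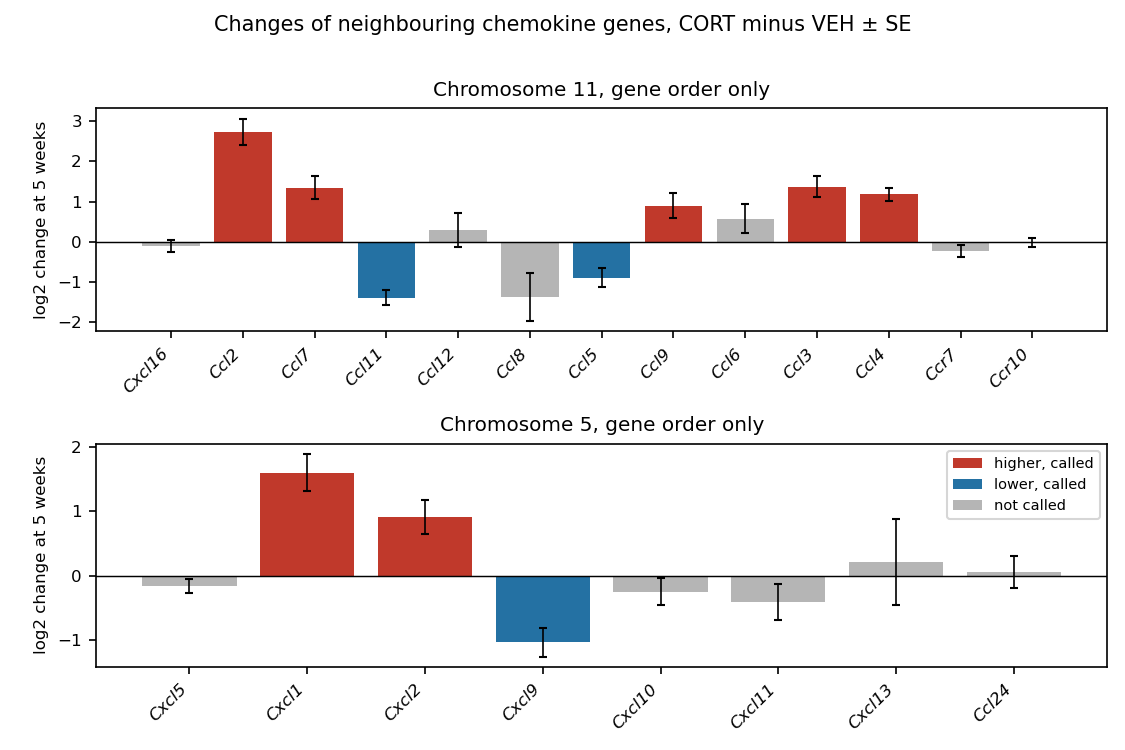
Change at 5 weeks (CORT minus VEH on the log2(FPKM + 1) scale, bars, with the standard error) of the members on chromosomes 11 and 5, in gene order without distances. Red bars rose, blue bars fell and grey bars were not called, with Ccl2 at 2.73 and its neighbour Ccl11 at -1.39.

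Markers of the cells that make or carry these proteins moved as well, and their part in the chemokine changes was not tested. Of 17 macrophage markers, 9 rose and 2 fell at 5 weeks, with a summed level of 1072 to 2948 FPKM in CORT and 619 to 1164 FPKM in VEH. Rises included the lipid receptor gene Trem2 (2.63, adjusted p = 3.99e-04) and Cd68 (1.82, adjusted p = 4.84e-04), beside the rise of Ccl2, Ccl3 and Ccl4. The monocyte list was mixed, with 2 of 10 higher and 2 lower, and sums of 142 to 556 FPKM in CORT and 122 to 280.2 FPKM in VEH. Chil3 and S100a4 rose (2.72 and 2.23, adjusted p = 8.69e-06 and 1.65e-04), while Itgal and Ly6c2, the latter a marker of the monocytes that carry Ccr2, fell (-0.64 and -0.88, adjusted p = 0.00128 and 0.00132). Of 14 T and NK cell markers tested, 9 fell and 0 rose, with sums of 3.2 to 5.0 FPKM in CORT and 9.96 to 13.8 FPKM in VEH, beside the fall of Cxcr6, Cxcr3 and Ccl5. Nkg7, of cytotoxic granules, and Cd2 led that list (-0.97 and -1.0, adjusted p = 6.74e-05 and 6.95e-05). Of 10 dendritic cell markers, Xcr1 left out, 5 fell and 0 rose, with sums of 21.2 to 30.3 FPKM in CORT and 36.8 to 51.1 FPKM in VEH, beside the fall of Xcr1. Cd209a and Clec9a were the clearest (-1.70 and -1.02, adjusted p = 6.16e-06 and 3.40e-05). Of 14 endothelial markers, 13 fell and 0 rose, with sums of 98 to 157 FPKM in CORT and 231 to 422 FPKM in VEH, beside the fall of Cxcl12. Of 11 fibroblast and preadipocyte markers tested, 2 rose and 3 fell, with sums of 1380.1 to 1879 FPKM in CORT and 1481 to 2998 FPKM in VEH. Dpt rose (0.83, adjusted p = 0.00284), and Pdgfra, Dcn and Pdgfrb fell (-0.64, -0.99 and -0.71). Of 5 eosinophil markers tested, 2 fell (Il5ra at -0.51 and Ear2 at -0.96), beside the fall of Ccl11, and the defining eosinophil genes Epx and Siglecf were at most 0.125 and 0.237 FPKM in any library. Of 10 neutrophil and mast cell markers tested, 1 rose (S100a8, 1.62, adjusted p = 0.00409) and 4 fell (Elane, Mcpt4, Kit and Cpa3, at -1.53, -1.63, -0.79 and -1.02), beside the rise of Cxcl1 and Cxcl2. At 15 weeks, 1 macrophage marker was higher, 1 dendritic cell marker was lower, and no endothelial or T and NK cell marker passed. The dendritic cell marker was Dpp4, which is also on the list of other chemokine system genes and is given again below.

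The rest of the pathway, from lists written with earlier results known, changed in single genes. Of 14 other genes of the chemokine system, 2 rose and 2 fell at 5 weeks (list median -0.18, all genes 0.017). Pf4, the platelet CXC chemokine that macrophages also make, rose from a mean of 59.3 to 125 FPKM (1.06, adjusted p = 0.00191). Rarres2, which encodes the chemoattractant chemerin, rose from 128 to 246 FPKM (0.94, adjusted p = 1.74e-04). The scavenging receptors Ackr1, of venous endothelium, and Ackr4 fell (-0.52 and -0.36, adjusted p = 0.00264 and 0.0362). Of 24 genes of receptor signalling, 6 rose and 1 fell. Rgs1, which shortens chemokine receptor signals, rose from 1.24 to 26.8 FPKM (3.51, adjusted p = 2.94e-05), and Rgs2 fell from 51.8 to 9.8 FPKM (-2.20, adjusted p = 4.34e-04). The kinase gene Ptk2b rose (0.67, adjusted p = 9.62e-05).

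Of 22 NF-kappaB pathway genes, 2 rose and 4 fell. Nfkbia, whose protein holds NF-kappaB in the cytoplasm and which is a known glucocorticoid target, fell (-0.86, adjusted p = 9.95e-04), and Tnfaip3, another brake on the pathway, rose (0.57, adjusted p = 0.00243). Of 10 genes tested of the interferon-gamma axis, which drives Cxcl9, 1 rose and 3 fell. The receptor subunit gene Ifngr2 rose (1.11, adjusted p = 2.04e-07), while Ifngr1, Irf1 and Ciita fell (-0.52, -0.39 and -0.72). Of 9 genes tested of the type 2 cytokine axis, which drives Ccl11, 1 rose (Stat6, 0.89) and 2 fell (Il1rl1, -0.49, and Il4ra, -0.45).

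At 15 weeks, the time labelled as recovered, 0 of 42 members passed the test in either direction, beside 3.58% of all genes called higher and 6.25% called lower (9.84% in all). Of all genes called then, 36.4% were higher, and 63.4% when libraries were scaled to equal total reads, where the members called were still 0. By limma, 3 members had an unadjusted p below 0.05, beside 4039 of the 16581 genes tested. With limma voom on the recovered reads, 0 members were called as well. No member had groups without overlap, beside 3.02% of all genes higher and 4.69% lower. The nearest to a call was Cxcr2, at 26, 25.9, 33.8, 26.9 and 23.7 FPKM in CORT and 32.8, 38, 31.9, 35.7 and 31.9 FPKM in VEH (log2 change -0.32, SE 0.10, adjusted p = 0.0606). All CORT libraries but replicate 3 lay below every VEH library, and without CORT_15w replicate 3 it passed (-0.40, adjusted p = 0.016). The authors' deposited table lists Cxcr2 as lower at 15 weeks (log2 change -0.32, adjusted p = 0.0305) and calls no other member, beside 13.6% of all genes with an adjusted p. For 6 members, Ccl8 and Cxcl13 among them, that table gives no adjusted p at 15 weeks. The other members with an unadjusted p below 0.05 were Cxcr5 (log2 change 0.36, SE 0.15, adjusted p = 0.137) and Cxcl16 (log2 change 0.34, SE 0.15, adjusted p = 0.151). Ccl12 was called only when the 7 libraries were left out (1.47, adjusted p = 0.0442), where 0.838% of all genes were called. Of the pathway lists at 15 weeks, receptor signalling had 3 of 24 genes higher (Arrb1, Ptk2b and Gnai2, at 0.77, 0.45 and 0.36), and Dpp4, a protease that trims chemokines, was lower (-0.77, adjusted p = 0.0253).

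Whether the corticosterone effect differed between the times was tested directly, as the effect at 15 weeks minus that at 5 weeks. Members that passed this test with a difference above 0 numbered 7 of 42 (16.7%), beside 6.12% of all genes, and those that passed below 0 numbered 7 (16.7%), beside 9.38%, which makes 33.3% of members beside 15.5% of all genes. The contrast uses the 5-week libraries again, and each of the 14 had been called at 5 weeks in the opposite direction. Differences above 0 were found for Cxcr6 (log2 change 1.10, SE 0.15, adjusted p = 3.28e-04), Ccl11 (1.18), Cxcl9 (1.32), Cxcl12 (1.76), Ccl19 (1.32), Ccr2 (1.65) and Cxcr3 (0.70). Differences below 0 were found for Ccl2 (log2 change -2.44, SE 0.47, adjusted p = 0.00284), Ccl4 (-1.18), Ccl25 (-0.52), Ccl3 (-1.29), Cxcl1 (-1.32), Ccl7 (-1.26) and Cxcr4 (-1.26). For Cxcr4 most of it lay in VEH, whose mean went from 3.06 to 8.09 FPKM, while CORT went from 6.7 to 5.68 FPKM. For Ccr2, VEH went from 27.2 to 14.1 FPKM and CORT from 7.78 to 12.9 FPKM. Neither change of VEH passed the test between times. Of all genes called in this contrast, 39.5% were above 0, and 65.7% when libraries were scaled to equal total reads, where the members split 8 above and 4 below.

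Of these differences, 5 lost their call when 1 library was left out, with changes of like size. Cxcr4 lost its call without any 1 of CORT_5w replicates 2, 4 and 5, VEH_5w replicates 2, 3, 4 and 5, CORT_15w replicates 1, 2 and 3 and VEH_15w replicates 1, 2, 3 and 4 (-1.27 to -1.04, adjusted p 0.053 to 0.0792). Ccl7 lost its call without any 1 of CORT_5w replicates 2, 4 and 5, VEH_5w replicates 1, 4 and 5, CORT_15w replicates 1, 4 and 5 and VEH_15w replicates 1 and 3 (-1.24 to -1.09, adjusted p 0.0596 to 0.0817). Cxcr3 did so without any 1 of CORT_5w replicates 1, 2, 3, 4 and 5, VEH_5w replicates 3 and 4, CORT_15w replicates 3 and 4 and VEH_15w replicates 1, 2 and 5 (0.60 to 0.74, adjusted p 0.0512 to 0.0817). Cxcl1 did so without any 1 of CORT_5w replicates 2 and 4, VEH_5w replicates 2, 4 and 5, CORT_15w replicates 1 and 4 and VEH_15w replicate 1 (-1.35 to -1.05, adjusted p 0.0541 to 0.0651), and Ccl3 without CORT_5w replicates 2 and 4 (-1.25 to -1.20, adjusted p 0.0523 to 0.0539). The differences of Ccl2, Ccr2, Cxcr6, Ccl11, Cxcl9, Cxcl12, Ccl19, Ccl4 and Ccl25 kept their calls when any 1 library was left out. Of these 9, Ccl2, Ccr2, Cxcr6 and Ccl11 also kept them without the 7 libraries, where the other 5 lost theirs (adjusted p from 0.0521 for Cxcl12 to 0.104 for Cxcl9). The differences of Ccl3 and Cxcl1 came down to -0.74, adjusted p = 0.416 and -0.76, adjusted p = 0.377 there. Those of Ccl7 and Cxcr3 lost their calls there too (-1.10, adjusted p = 0.13 and 0.80, adjusted p = 0.137), while Cxcr4 passed.

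CORT_15w replicate 4 carried the highest level of 10 of the 42 members among all 20 libraries (23.8%), beside 4.99% of all genes tested. The library with the next most was CORT_5w replicate 4, with 6 members and 7.32% of all genes. The library had been singled out for Cxcl13, which is 1 of the 10, so the share is a description. Cxcl13, which draws B cells into lymphoid follicles through Cxcr5, stood at 2.9, 2.95, 8.09, 71.1 and 1.78 FPKM in CORT_15w replicates 1 to 5. In the other groups it ran 1.67, 9.62, 3.31, 3.53 and 3.87 FPKM in VEH_15w, 2.8, 4.57, 3.91, 11.4 and 7.18 FPKM in CORT_5w and 11.4, 5.69, 2.97, 2.25 and 3.73 FPKM in VEH_5w. Replicate 4 was thus the single library above 11.4 FPKM. Cxcl13 was not called at 15 weeks (log2 change 0.68, SE 0.67, adjusted p = 0.583), and without replicate 4 its change had the other sign (-0.13, adjusted p = 0.901). Ccl8 stood at 13.3, 14.2, 21.4, 203 and 7.3 FPKM in CORT_15w, again with replicate 4 alone high, and at 13.7, 7.31, 20.8, 6.3 and 11.9 FPKM in VEH_15w. Its change of 1.01 (adjusted p = 0.324) became 0.24, adjusted p = 0.735 without replicate 4, and its difference between times passed the test without it (1.61, adjusted p = 0.0382).

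The receptor of Cxcl13 was high in the same library. Cxcr5 ran 0.699, 0.518, 0.442, 1.78 and 0.557 FPKM in CORT_15w replicates 1 to 5, and Ccr7 ran 0.587, 0.244, 0.384, 1.16 and 0.257 FPKM. Replicate 4 also held the highest level of Ccl5, Cxcr3, Cxcr6, Cxcl16, Cxcl5 and Ccr9, by smaller margins. Markers of B and plasma cells were also high in replicate 4. The sum of 12 such markers was 159.9 FPKM in replicate 4 and at most 46.9 FPKM in any other library, and none of the 12 was at 0 in all libraries. That next highest sum was in VEH_15w replicate 1, which held the lowest Cxcl13 of all 20 libraries (1.67 FPKM). In CORT_15w replicate 4, Ms4a1 stood at 10.4 FPKM, Cd79a at 6.79 FPKM and Mzb1 at 6.29 FPKM. The macrophage sum was also the highest of the 15-week libraries, at 1509 FPKM, as was the monocyte sum, at 288 FPKM. So were the fibroblast and preadipocyte sum, at 2524 FPKM, and the eosinophil sum, at 10.9 FPKM. The T and NK cell sum of 17.5 FPKM was the highest of all 20. The lymph node and lymphoid stroma sum did not peak there. Among the CORT_15w libraries it was highest in replicate 5, at 311 FPKM, and in CORT_5w it ran from 366 to 486 FPKM. Of single genes of that list, replicate 4 held the highest level of 20 for Cr2 (1.93 FPKM, next 0.989), Ltb (2.18 FPKM, next 1.6), Fcer2a (1.23 FPKM, next 0.935) and Tnfsf11 (0.286 FPKM, next 0.232). Levels this low are a small part of the sum, which other genes of the list set, so the sum does not describe these genes. Madcam1 was at 0.0614 FPKM and Glycam1 at 0.218 FPKM, below other libraries. Alb, Prm2 and Crisp1 were at 5.45, 0.19 and 0.103 FPKM in it. The part of these cells in the chemokine levels of that library was not tested.

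**Figure D5:**
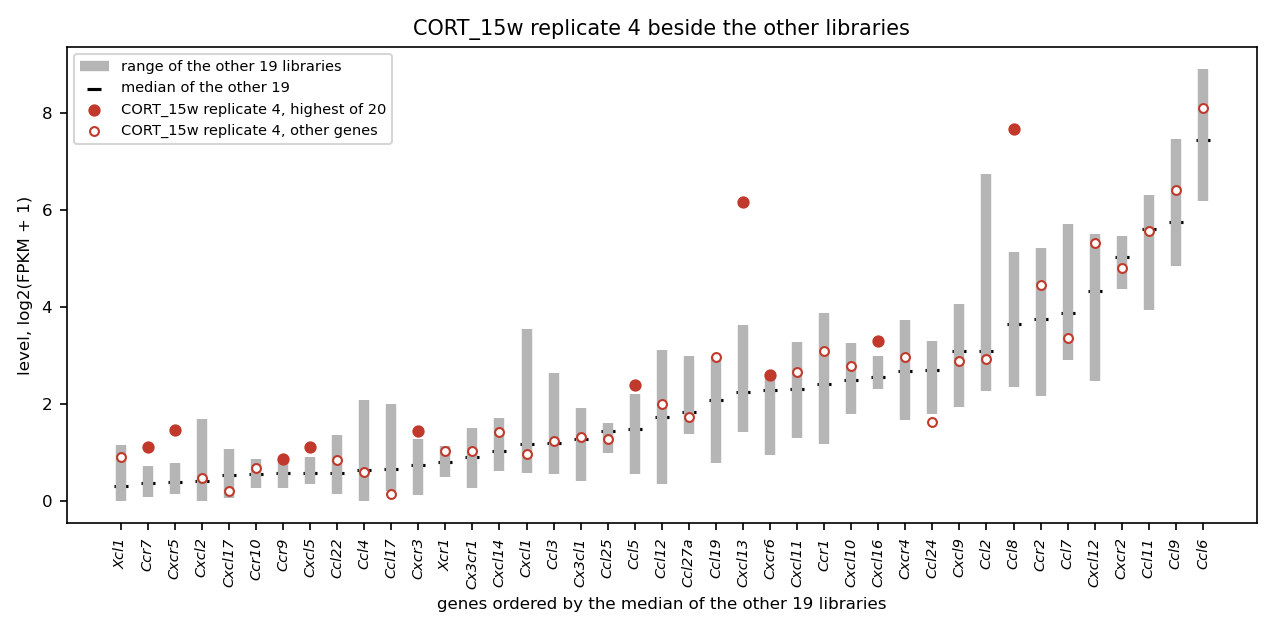
Level of 41 of the 42 members on the log2(FPKM + 1) scale in CORT_15w replicate 4 (circles), beside the range (grey bars) and median (black ticks) of the other 19 libraries, with genes ordered by that median. Filled circles are the 10 genes for which this library is the highest of 20, and Cxcl13 and Ccl8 lie far above the bars.

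Between the vehicle groups, 15 weeks minus 5 weeks, 0 of the 42 members and 0 of all 16581 genes passed the test by limma, and limma voom on the recovered reads called 0 as well. Unadjusted p-values below 0.05 were found for 7 members and 997 genes. Groups without overlap were found for 0 members, beside 0.694% of all genes higher and 0.476% lower. The change was -1.02 (SE 0.36) for Ccr1 and 1.14 (SE 0.29) for Cxcr4. In the authors' deposited table, 9 members were higher and 13 lower at 5 weeks, beside 41.8% of all genes with an adjusted p called in either direction. All 20 members called here were among them with the same sign, and Ccl8 was lower there as well.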

How the data were processed

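RNA-seq of 20 libraries was used as FPKM deposited by the authors for 24338 genes. Of TopHat, Bowtie, DESeq2 and DiffBind, and of builds mm9 and dm3, the submitters' processing notes give only the names. The authors' deposited tables also hold a mean normalized signal, log2 fold changes, a test score and p-values per gene, of which fold changes and adjusted p-values are quoted. Each gene's smallest step, started from the authors' mean signal, gave whole reads for 98.8% of 382438 values (tolerance 0.05), which set the depths. Groups came from the labels.

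Genes of at least 0.3 FPKM in 5 libraries (16581) were fitted with limma 3.58.1 (R 4.3.3, trend method) on log2(FPKM + 1) as 4 group means. P-values were two-sided and adjusted by Benjamini-Hochberg over all genes tested, with calls below 0.05. The model was tested on simulated data. Members, lists and tests were chosen with earlier results of these data known. Values of all libraries are printed for members called in any contrast with a group mean of at least 1 FPKM, and for Cxcl13. Other genes named come from the lists, at most 4 per list and contrast by smallest adjusted p, or mark a library. For neutrophil and mast cell markers at 5 weeks, every called gene is named instead. Ccl6, Ccl8, Cxcr5, Ccr7 and Csf3r were chosen after their values were seen. Alternatives were other pseudocounts, filters, scalings, voom, smaller models, the replicate block and left-out libraries. ChIP files hold mm9 positions without gene names, and the annotation at hand is of another build, so histone marks were not used here. Of the members, 1 enters the counts and the fit but is not reported here by name. Tables were read with pandas 2.3.3 (Python 3.11.15) and plotted with matplotlib 3.10.9.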

Additional observations from a re-analysis of the deposited data

Results flagged for a closer look

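Of 114 groups of 5 libraries tested for a value far from the other 4 (Dixon's ratio above 0.71), 9 had one, where chance gives about 5%. In CORT_15w replicate 4, Cxcl13 (71.1 FPKM) and Ccl8 (203 FPKM) stood far above the rest of their group. That library had been singled out for its Cxcl13, so this value is a description and adds nothing to the count against chance. Cxcl13 was also far from the others in VEH_15w replicate 2 (9.62 FPKM). Ccl27a was high in CORT_5w replicate 3 (4.41 FPKM) and VEH_15w replicate 5 (6.99 FPKM), both of which hold transcripts of testis, with Prm2 at 184 and 570.4 FPKM. Ccl12 was high in VEH_15w replicate 5 as well (4.81 FPKM). The others were Ccl3 in CORT_15w replicate 3 (4.07 FPKM), Cx3cr1 in VEH_5w replicate 4 (1.83 FPKM) and Cxcr4 in VEH_5w replicate 1 (5.41 FPKM).

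The corticosterone effect differed between 15 and 5 weeks for 14 members by a test of the difference itself (33.3% of members, beside 15.5% of all genes). Values are the effect at 15 weeks minus that at 5 weeks, on the log2 scale. They were above 0 for Ccr2 (1.65), Cxcl12 (1.76), Cxcl9 (1.32), Ccl19 (1.32), Ccl11 (1.18), Cxcr6 (1.10) and Cxcr3 (0.70), all called lower at 5 weeks. They were below 0 for Ccl2 (-2.44), Cxcl1 (-1.32), Ccl3 (-1.29), Ccl7 (-1.26), Cxcr4 (-1.26), Ccl4 (-1.18) and Ccl25 (-0.52), all called higher at 5 weeks. At 15 weeks itself, 0 of the 42 members were called. The calls of Cxcr4, Ccl7, Cxcr3, Cxcl1 and Ccl3 depended on single libraries. Without the 7 libraries that hold other tissues, 5 of the 14 kept their call, where the share of all genes called went from 15.5% to 4.29%. Part of the Cxcr4 and Ccr2 differences lay between the VEH groups (15 weeks minus 5 weeks 1.14 and -0.92, neither called).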

How the results depend on the processing

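No called member changed sign under any alternative run. Of the 5-week calls, 379 of the repeats kept the call and 21 lost it. Of the calls in the difference between times, 333 kept it and 73 lost it. Without the filter, with libraries scaled to equal total reads, or with voom on recovered reads, members called below 0 in that difference numbered 4 in place of 7. Without the 7 libraries that hold other tissues they numbered 2, those above 0 numbered 4, and 1 member was called higher at 15 weeks (Ccl12). In that setting 4.29% of all genes were called in the difference, in place of 15.5%, and 0.838% at 15 weeks, in place of 9.84%. At 5 weeks removal of the 7 libraries left 7 higher and 9 lower, 15 of them also called with all libraries. The share of all genes called at 5 weeks went from 41.6% to 26.5%, with 3 of the 5 CORT_5w libraries left out. Leaving out 1 library at a time gave 7 to 9 higher and 9 to 12 lower at 5 weeks, 0 to 0 higher and 0 to 1 lower at 15 weeks, and 6 to 8 above and 3 to 8 below 0 in the difference. The low of 3 came without CORT_5w replicate 2 or 4. Scaling to equal total reads moved the share of all calls that were higher from 36.4% to 63.4% at 15 weeks and the median of all differences from -0.014 to 0.10. Replicate numbers showed no steady pairing of the libraries: same-numbered deviations correlated from -0.46 to 0.29 at 5 weeks and -0.48 to 0.44 at 15 weeks. The best match had the same number only for replicate 5 at each time. Libraries that hold other tissues enter these values, so they cannot decide whether the numbers pair. The replicate block left 9 and 11 at 5 weeks and 8 above and 3 below 0 in the difference. Alternatives for histone mark sites and peaks were not run. Depth limits members near the floor.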

Other observations

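The 4 libraries with Prm2, a protamine of sperm precursors, above 100 FPKM were also the 4 highest in Ccl27a, a comparison chosen after the values were seen. In CORT_5w replicate 3 Ccl27a was at 4.41 FPKM. The values in CORT_15w were 5.65 FPKM for replicate 1 and 4.9 FPKM for replicate 5. VEH_15w replicate 5 held 6.99 FPKM. In that order of libraries, Prm2 was at 184, 309, 129 and 570.4 FPKM. In the other 16 libraries Ccl27a did not exceed 3.25 FPKM.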
